A study of Mus musculus with 6 samples.

Results

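Transcripts of the vessel wall and of vascular endothelial growth factor (VEGF) signalling were measured in mouse eyes at a morning time, 1.5 h from light onset, and a later one, 9.0 h. The 10 genes were fixed by name and not by a cut on their values, though with earlier results of these data known. They are the ligand Vegfa, the receptors Kdr, Flt1 and Tek, the endothelial genes Pecam1, Cdh5, Cldn5 and Vwf, and the pericyte genes Pdgfrb and Rgs5. All 10 were found among the 22692 gene symbols of each table. Whole eyes were taken from the inbred strain C57BL/6J, and time was the only factor. A library pooled the RNA of 5 females, all 4 weeks old, and each time had 3 libraries. No genotype, drug or other treatment is labelled. Whether the 3 pools of a time came from separate animals is not stated, so p-values describe library-to-library spread that can be technical.

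In the eye, vessels supply the retina, choroid, iris and ciliary body, while the lens and the central cornea have none. VEGF-A is secreted by pigment epithelium, glia and other cells and acts on endothelial cells mainly through the receptor encoded by Kdr. The receptor encoded by Flt1 binds the same ligand tightly and signals weakly, and a soluble form of it, made from the same gene, holds VEGF away from Kdr. Endothelial cells are joined by cadherin and claudin contacts that form the inner blood-retina barrier, and pericytes wrap the capillaries from outside. The tables hold 1 value per gene symbol, so splice forms of Vegfa and the soluble and membrane forms of Flt1 were not separated.

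The promoters of the ligand and of its 2 receptors are shown because, of the 6 ratios between genes that were compared, that of Vegfa to Kdr was the 1 that separated the times. That ratio did not pass (exact permutation p = 0.1, adjusted p = 0.3), and Vegfa alone also separated the times. RefSeq start sites of build GRCm38.p6 were available for 6 of the 10 genes (Vegfa, Kdr, Flt1, Tek, Cldn5 and Rgs5). The 250 bases before the start are printed 5′ to 3′, with capitals marking the GC box GGGCGG on either strand.
Vegfa, chr17:46032378-46032627, minus strand: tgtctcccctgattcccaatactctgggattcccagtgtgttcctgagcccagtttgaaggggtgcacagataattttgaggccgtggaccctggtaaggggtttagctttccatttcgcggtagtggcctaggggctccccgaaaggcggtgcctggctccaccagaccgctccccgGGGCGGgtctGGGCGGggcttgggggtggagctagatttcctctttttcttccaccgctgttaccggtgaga
Kdr, chr5:75978456-75978705, minus strand: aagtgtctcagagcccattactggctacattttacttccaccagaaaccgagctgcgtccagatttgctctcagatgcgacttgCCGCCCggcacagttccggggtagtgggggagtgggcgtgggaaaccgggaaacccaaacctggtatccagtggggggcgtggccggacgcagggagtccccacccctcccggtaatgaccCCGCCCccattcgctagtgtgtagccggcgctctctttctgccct
Flt1, chr5:147726012-147726261, minus strand: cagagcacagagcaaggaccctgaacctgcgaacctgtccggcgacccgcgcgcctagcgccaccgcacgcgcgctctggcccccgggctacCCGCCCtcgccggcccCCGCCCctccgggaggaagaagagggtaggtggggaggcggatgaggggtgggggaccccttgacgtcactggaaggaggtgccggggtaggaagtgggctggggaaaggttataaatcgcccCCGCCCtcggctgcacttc
GC boxes numbered 2 in the Vegfa window, 2 in Kdr and 3 in Flt1, and 1 was found in Cldn5 and none in Tek or Rgs5. Of all 32851 start sites in the table, 32.7% held one. Vegfa has a second listed start inside the gene, whose window held 1 GC box. The E-box CACGTG, which clock proteins bind, was in none of these windows and in 6.0% of all. ACGTG, a form of the hypoxia-response core that also lies inside the E-box, was found only at the internal Vegfa start. It stood 211 bases before that start, and 16.6% of all windows held it. Other forms of the core, such as GCGTG, were not searched, nor were bases beyond the 250 of each window. An ETS core CCGGAA stood in the Kdr window, 153 bases before the start (12.0% of all windows), and a TATAAA in the Flt1 window, 31 bases before the start (12.4%). Both strands were searched for each motif, and these are matches of letters, not shown binding sites.

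Values are RPKM, read numbers divided by the length of the gene model and the total of the library. Estimated depth was 12680000 and 13000000 reads in 1.5 h replicates 2 and 3 and 24030000 to 31800000 in the other 4 libraries. At that depth about 180 reads lay behind the lowest value among the 10 genes (Vwf) and about 3400 behind the highest count (Kdr), which covers counting error only. A pair of libraries stood apart, and results are also given without them. In 1.5 h replicate 1, lens genes took an estimated 12.95% of reads, against 17.09% to 22.53% elsewhere. In 1.5 h replicate 3, labelled female, the Y-linked genes Ddx3y, Uty, Kdm5d and Eif2s3y had 0.126 to 0.78 RPKM and were listed at 0 in the other 5, and the haemoglobin gene Beta-s had 366.91 RPKM, against 41.87 to 117.74. Rod genes (11, summed 13623 to 15581 RPKM) and lens genes (22, summed 125969 to 256280 RPKM) were present in every library.

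Vegfa had the lower values at the later time in all libraries, and none of the 10 genes passed the test across genes. Mean Vegfa was 23.85 ± 3.08 RPKM at 1.5 h and 17.95 ± 1.74 at 9.0 h (SD, n = 3 each), a ratio of 0.75. The other 9 genes overlapped between the times, with ratios of the means between 0.84 (Cldn5) and 1.32 (Vwf). All 10 passed the filter on low values (at least 1 RPKM in 3 or more libraries), and 0 of 10 were called by limma at a Benjamini-Hochberg adjusted p of 0.05, where 0.222% of the 13490 genes tested were called. At an unadjusted p of 0.05, 1 of 10 passed (Vegfa), against 11.1% of all genes. The times did not overlap in 1 of 10, against 18.2% of all genes. The share of the 10 that separated was therefore no higher than the background. The median log2 fold change was −0.09 over the 10 genes, with 6 below 0 and 4 above, and 0.00 over all genes tested. In whole-eye RNA, fewer cells of a type and less RNA per cell cannot be told apart.

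**Figure D1:**
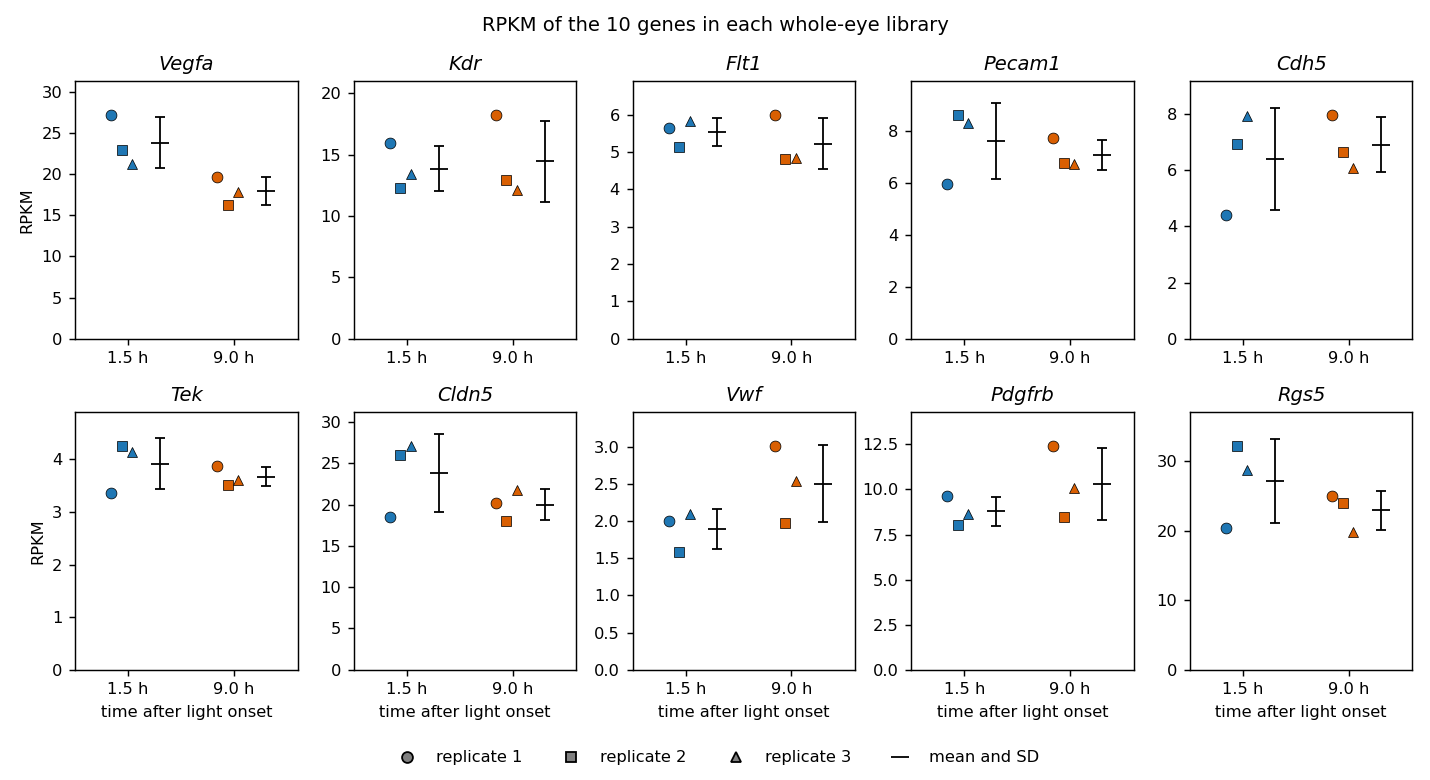
RPKM (vertical axes, each from 0) of the 10 genes at 1.5 h (blue) and 9.0 h (orange) after light onset; each symbol is a library and bars are mean and SD (n = 3). Vegfa is the gene whose 3 libraries at 1.5 h (21.28 to 27.26) all lie above the 3 at 9.0 h (16.26 to 19.73).

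Vegfa, the ligand, measured 27.26, 23.01 and 21.28 RPKM at 1.5 h (replicates 1 to 3, the order used throughout) and 19.73, 16.26 and 17.86 RPKM at 9.0 h. The lowest morning library was 1.08 times the highest later one, so the separation was narrow. The log2 fold change, on the log2(RPKM + 0.1) scale used throughout, was −0.40 ± 0.15 (SE), with an unadjusted 95% interval of −0.73 to −0.08. The unadjusted limma p was 0.0187 and the adjusted p 0.344. The change was lower than that of 95.4% of the genes tested. Without 1.5 h replicate 1, the highest library, it was −0.30 (limma adjusted p = 0.225), and without 1.5 h replicate 3 it was −0.48 (0.411). Lens genes had a median of 0.42 over 22 tested, with 19 above 0 (median 0.26 without 1.5 h replicate 1). Of these 22, 9 were higher and 0 lower at 9.0 h without overlap, against 9.78% and 8.41% of all genes. With lens genes left out of the library totals the Vegfa value was −0.33 (limma adjusted p = 0.323).

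Kdr, the main signalling receptor of VEGF-A on endothelium, measured 15.90, 12.30 and 13.39 RPKM at 1.5 h and 18.25, 12.95 and 12.14 at 9.0 h. The highest and the lowest of these libraries were both at 9.0 h. Flt1, the tightly binding receptor, measured 5.65, 5.12 and 5.84 RPKM and then 6.00, 4.81 and 4.85, with the same library, 9.0 h replicate 1, highest. Their log2 fold changes were 0.04 (95% interval −0.35 to 0.44) and −0.09 (−0.43 to 0.25). Neither passed (limma adjusted p = 0.951 and 0.875), and the intervals leave room for change in either direction. Kdr ran from −0.14 without 9.0 h replicate 1 to 0.16 without 9.0 h replicate 3. Tek, the angiopoietin receptor Tie2, measured 3.36, 4.26 and 4.15 RPKM at 1.5 h and 3.87, 3.52 and 3.61 at 9.0 h. The fitted change was −0.09 (−0.44 to 0.26; limma adjusted p = 0.879), and 1.5 h held both its lowest and its highest library.

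**Figure D2:**
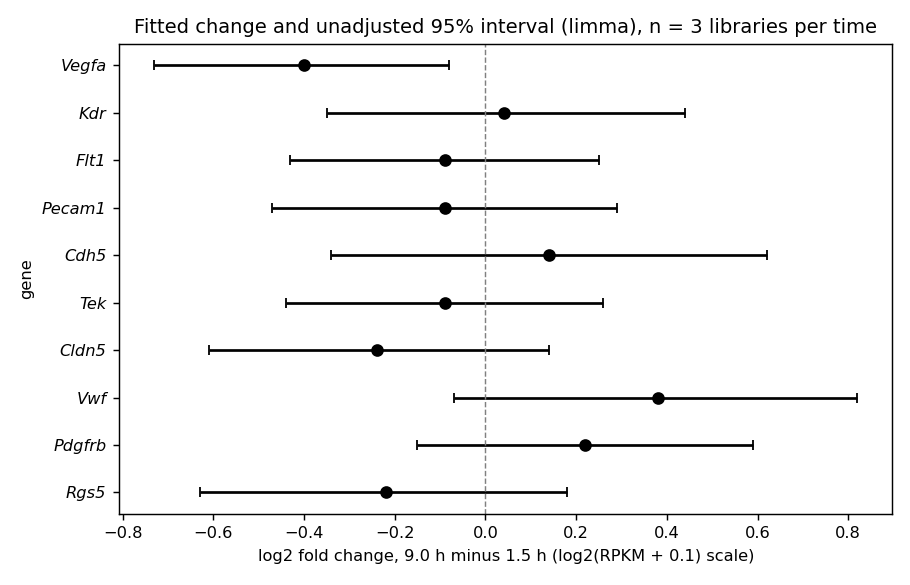
Fitted log2 fold change of each gene, 9.0 h minus 1.5 h (horizontal axis, log2(RPKM + 0.1) scale), with unadjusted 95% intervals from limma (n = 3 libraries per time). The interval of Vegfa (−0.73 to −0.08) lies below 0, and those of the other 9 genes include 0.

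Levels of the ligand against its receptors were compared within each library, a measure that does not depend on the library total. The ratio of Vegfa to Kdr was 1.71, 1.87 and 1.59 at 1.5 h and 1.08, 1.26 and 1.47 at 9.0 h, with no overlap. Its means were 1.72 ± 0.14 and 1.27 ± 0.20 (SD, n = 3), a log2 difference of −0.45 (exact two-sided permutation p = 0.1, the smallest that 3 against 3 can give; adjusted p = 0.3 over the 6 ratios compared). The ratio of Vegfa to Flt1 was 4.83, 4.49 and 3.64 and then 3.29, 3.38 and 3.68, overlapping through 1.5 h replicate 3 and 9.0 h replicate 3 (log2 difference −0.32, exact permutation p = 0.2, adjusted 0.3). The ratio of Kdr to Flt1 was 2.50 ± 0.28 and 2.75 ± 0.27 (log2 difference 0.13, exact permutation p = 0.4). Leaving out any 1 library kept the Vegfa to Kdr difference between −0.56 and −0.34. RPKM divides by the gene model length, so a ratio of levels depends on the lengths the authors used, while its difference between times does not.

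**Figure D3:**
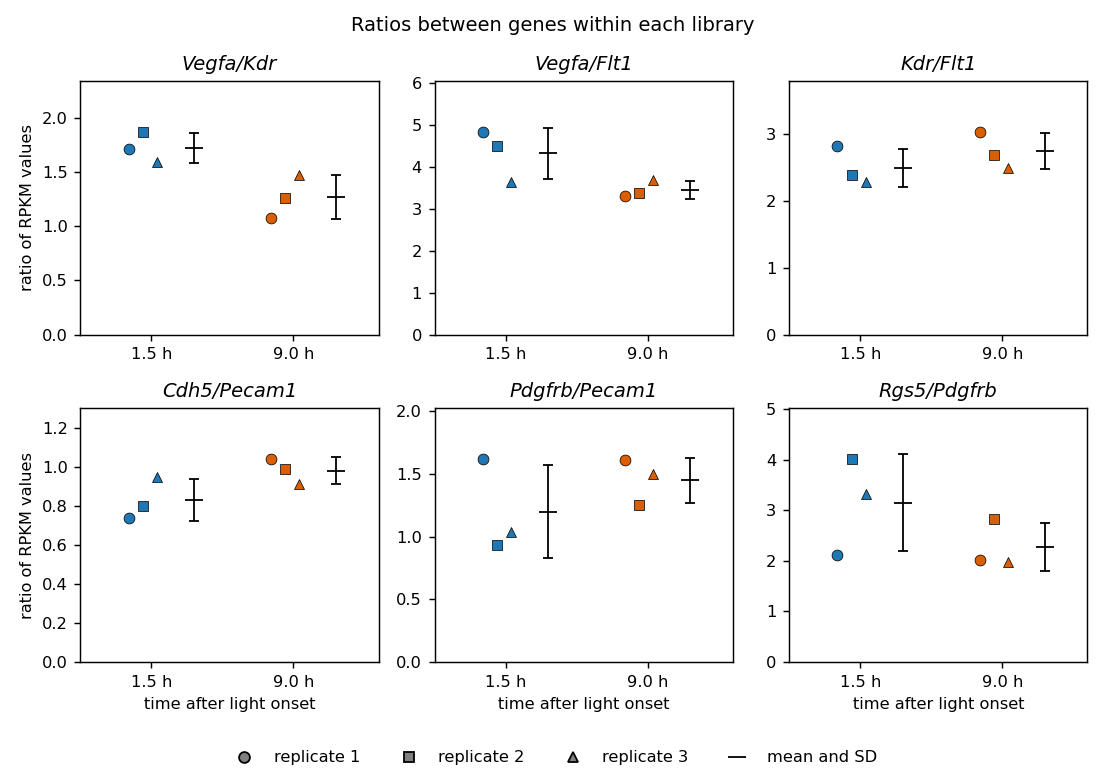
Ratio of RPKM values (vertical axes, from 0) between pairs of genes in each library at 1.5 h (blue) and 9.0 h (orange), with mean and SD (n = 3). Vegfa/Kdr is the pair whose times do not overlap (1.59 to 1.87 against 1.08 to 1.47).

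None of the 3 junction genes of endothelium separated the times. Pecam1, the adhesion molecule CD31, which platelets and leukocytes also carry, measured 5.95, 8.62 and 8.30 RPKM at 1.5 h and 7.71, 6.75 and 6.71 at 9.0 h. Cdh5, the VE-cadherin of adherens junctions, measured 4.40, 6.93 and 7.92 and then 7.98, 6.66 and 6.08. Cldn5, the claudin of barrier tight junctions, measured 18.46, 25.98 and 27.11 and then 20.17, 17.98 and 21.76. In all 3 genes 1.5 h replicate 1 was the lowest of the morning libraries, and in Pecam1 and Cdh5 the lowest of the 6. The log2 fold changes were −0.09 ± 0.17, 0.14 ± 0.22 and −0.24 ± 0.17 (SE), and none passed (limma adjusted p = 0.884, 0.862 and 0.657). With 1.5 h replicate 1 left out they were −0.26, −0.11 and −0.41 (limma adjusted p = 0.347, 0.737 and 0.0776), so the direction of Cdh5 rested on that library. Leaving out 1.5 h replicate 3 gave −0.02, 0.31 and −0.14.

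Vwf, the clotting glycoprotein stored by endothelium and platelets, measured 2.00, 1.58 and 2.09 RPKM at 1.5 h and 3.01, 1.97 and 2.54 at 9.0 h. It had the highest fold change of the 10 genes, 0.38 ± 0.20 (SE), and its times overlapped through 9.0 h replicate 2 (limma adjusted p = 0.546). The value was 0.24 without 9.0 h replicate 1 and 0.53 without 9.0 h replicate 2.

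The 2 pericyte genes differed in sign. Pdgfrb, the receptor for the PDGF-B that recruits pericytes and which fibroblasts also carry, measured 9.63, 8.04 and 8.66 RPKM at 1.5 h and 12.42, 8.47 and 10.06 at 9.0 h. Rgs5, a regulator of G protein signalling, measured 20.44, 32.22 and 28.67 and then 25.06, 23.94 and 19.81. Pdgfrb thus had its highest library at 9.0 h and Rgs5 at 1.5 h, with overlap in both. The log2 fold changes were 0.22 ± 0.17 and −0.22 ± 0.18 (SE; limma adjusted p = 0.69 and 0.714). The ratio of Rgs5 to Pdgfrb was 2.12, 4.01 and 3.31 at 1.5 h and 2.02, 2.83 and 1.97 at 9.0 h (log2 difference −0.44, exact permutation p = 0.2, adjusted 0.3). This difference was −0.70 without 1.5 h replicate 1, and without 1.5 h replicate 2 it was −0.24. The ratio of Pdgfrb to Pecam1 was 1.20 ± 0.37 and 1.45 ± 0.18 (log2 difference 0.31, exact permutation p = 0.4), and that of Cdh5 to Pecam1 0.83 ± 0.11 and 0.98 ± 0.07 (0.23, exact permutation p = 0.2).

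The same genes were fitted without the libraries that stood apart. Leaving out 1.5 h replicate 1 gave log2 fold changes of 0.15 for Kdr, −0.07 for Flt1, −0.19 for Tek, 0.42 for Vwf, 0.29 for Pdgfrb and −0.41 for Rgs5. Leaving out 1.5 h replicate 3 gave 0.02, −0.05, −0.05, 0.45, 0.21 and −0.17. No gene was called in either fit, and the lowest adjusted p among these 6 was that of Rgs5 in the former (limma adjusted p = 0.0787).

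Endothelial genes did not move as 1 block across libraries. In 1.5 h replicate 1, Cdh5 lay 0.56, Pecam1 0.29 and Cldn5 0.23 below their own means on the log2 scale, while Kdr and Flt1 lay 0.18 and 0.07 above. Vegfa was 0.40 above its mean in that library. In 9.0 h replicate 1, 6 of the 7 endothelial genes and both pericyte genes were above their means, with Vwf at 0.46, Pdgfrb at 0.39 and Kdr at 0.38. In 9.0 h replicate 2, 1 of the 7 was. The summed RPKM of the 7 was 55.7, 64.8 and 68.8 at 1.5 h and 67.0, 54.7 and 57.7 at 9.0 h. The lowest morning sum, 55.7, was in the library with the lowest lens share, where 9 skeletal muscle genes also summed to 892.6 RPKM against 1416 to 1787 elsewhere. The lowest of all 6, 54.7 in 9.0 h replicate 2, was in the library with the highest lens share (22.53%), where the muscle genes summed to 1661. The highest sum, 68.8, was in the library with the highest Beta-s, while 9.0 h replicate 1 had 67.0 with Beta-s at 82.68 RPKM. The part of tissue make-up in these values was not tested.

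**Figure D4:**
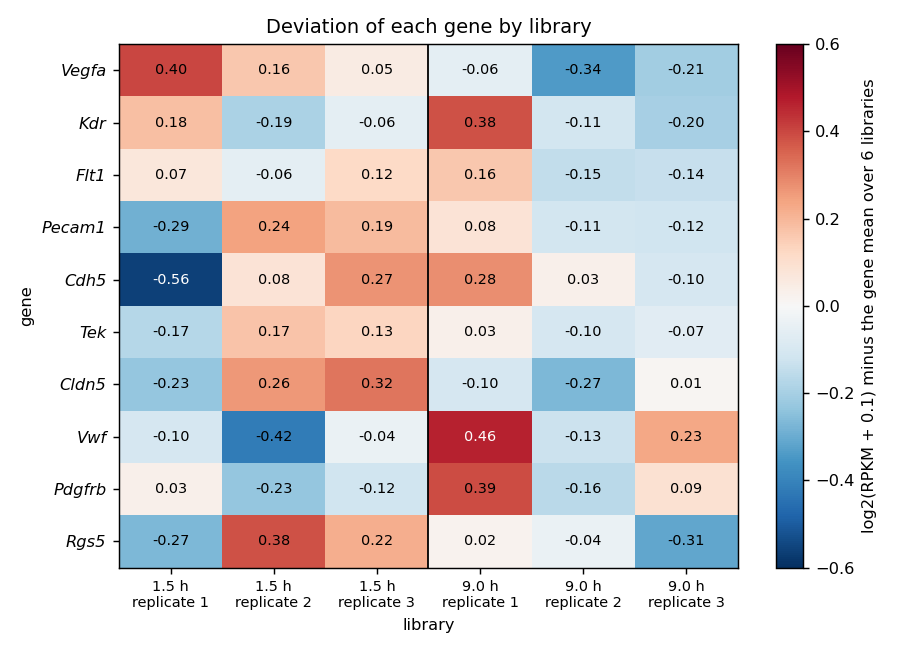
Deviation of each gene in each library from its own mean over the 6 libraries, in log2(RPKM + 0.1); red is above and blue below the mean, and the line separates the times. Vegfa is above its mean in the 3 libraries at 1.5 h and below in the 3 at 9.0 h, while Kdr, Vwf and Pdgfrb are highest in 9.0 h replicate 1 (0.38, 0.46 and 0.39).

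By mean over the 6 libraries the order of levels was Rgs5 (25.02 RPKM), Cldn5 (21.91), Vegfa (20.90), Kdr (14.16), Pdgfrb (9.55), Pecam1 (7.34), Cdh5 (6.66), Flt1 (5.38), Tek (3.79) and Vwf (2.20). The ranges of neighbours overlapped down to Flt1. Flt1 lay above Tek and Tek above Vwf in all 6 libraries without overlap. Vegfa exceeded Kdr, and Kdr exceeded Pdgfrb, within each of the 6 libraries although their ranges overlapped.

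Likeness to Vegfa was measured as Pearson's r of log2(RPKM + 0.1) over the 6 libraries, among 12023 genes with a mean of at least 2 RPKM. The closest were Dll1 (r = 0.998), Ccdc74a (0.993), Prrc2c (0.993), Gpatch8 (0.992) and Mcc (0.991). Their log2 fold changes ran from −0.37 to −0.24 and none was called. Among the closest to Pecam1 were Ntrk2 (0.988), Tek (0.988), Ankrd40 (0.981) and Fcgr2b (0.978). With 6 libraries such values are common: 320 genes had r of at least 0.9 with Vegfa and 163 with Pecam1, and library make-up and depth are shared by all of them.

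Another 94 genes of vessels and their signals were described as 9 lists, of which 89 genes were tested. None was called by limma (0 of 89, against 0.222% of all genes). At an unadjusted p of 0.05, 11 were higher and 3 lower at 9.0 h, against 6.47% and 4.58% of all genes. Where no member of a list is called, the 2 with the highest levels are named, and other genes are named after their values were seen.

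Among 7 other VEGF family genes the median log2 fold change was 0.01. Vegfb, a ligand of Flt1, had 40.23 ± 3.81 RPKM in the morning and 46.07 ± 2.83 later, and Nrp1, a VEGF co-receptor, 8.24 ± 1.94 and 8.85 ± 1.44 (SD, n = 3). Pgf, the placental growth factor, which also binds Flt1, measured 4.65, 4.75 and 3.91 RPKM and then 7.57, 5.23 and 6.71. All 3 later libraries were above the morning ones, opposite in sign to Vegfa, with a log2 fold change of 0.53 and a limma adjusted p of 0.288. Of the 7 genes, 1 was higher and 0 lower at 9.0 h without overlap, against 9.78% and 8.41% of all genes. With 1.5 h replicate 1 left out the Pgf change was 0.57, and passed (limma adjusted p = 0.016) in a fit that called 1245 genes. The 4 tested angiopoietin genes had a median of −0.10, with Tie1, an orphan receptor related to Tek, at 0.20 and the ligand Angpt2 at 0.00. Angpt4 was below the filter.

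The other endothelial genes had a median of 0.06 over 28 tested members, with 17 above 0 and 11 below, and Tal1 and She below the filter. Cd34, a surface sialomucin, had 21.69 ± 2.28 and 25.11 ± 2.27 RPKM. Ramp2, which forms the adrenomedullin receptor with a partner, measured 14.89, 16.37 and 19.24 RPKM at 1.5 h and 24.63, 23.01 and 25.35 at 9.0 h. These times did not overlap, and the log2 fold change was 0.54 (limma adjusted p = 0.189). Gpihbp1, Dll4 and Rasip1 had fold changes of 0.77, 0.56 and 0.44, also without overlap (limma adjusted p = 0.287, 0.398 and 0.285). In all, 6 of 28 were higher and 1 (Thbd) lower at 9.0 h without overlap, against 9.78% and 8.41% of all genes. Barrier and transport genes had a median of −0.05 over 10: the glucose transporter Slc2a1 had 117.53 ± 4.09 and 113.59 ± 14.33 RPKM. Plvap, the diaphragm protein of fenestrated vessels such as those of the choroid, had 16.83 ± 2.99 and 23.02 ± 2.36 RPKM, and Tjp1, a scaffold of tight junctions, 17.57 ± 1.22 and 14.10 ± 0.57 (limma adjusted p = 0.332 and 0.399). The fit without 1.5 h replicate 1 called 10 of the 89 genes (11.2%), against 9.23% of all genes, a share near the background. There Ramp2, Dll4 and Plvap passed higher (limma adjusted p = 0.0479, 0.0212 and 0.0374) and Slco1a4 and Angpt1 lower (0.00772 and 0.0214).

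The list of other mural genes, those of pericytes and related cells, also holds Pdgfb, the gene of the ligand that Pdgfrb binds. The list median was 0.16 over 10 tested members, with Vtn at 0.25, Des at 0.23 and Pdgfb at 0.45 (limma adjusted p = 0.373). Vtn, at 206.82 to 292.11 RPKM, was not shown to come from mural cells. Des is also a muscle protein. Smooth muscle genes had −0.18 over 5, with Acta2 at −0.24 and Myl9 at 0.05. The hypoxia pathway list joins factors that drive Vegfa in low oxygen, such as Hif1a, with their negative regulators and target genes. Its median was 0.10 over 15, which gives no direction of pathway activity. Hif1a had 80.61 ± 17.42 and 80.97 ± 11.56 RPKM and Ndrg1 137.23 ± 18.34 and 166.51 ± 8.35. At an unadjusted p of 0.05, 2 of the 15 were higher at 9.0 h, Bnip3 at 0.45 and Ankrd37 at 0.34 (limma adjusted p = 0.437 and 0.361). In the other direction 1 was lower, Adm, the adrenomedullin precursor, at −0.61 (limma adjusted p = 0.44). Of all genes, 6.47% were higher and 4.58% lower at that threshold. The times did not overlap in 4 of 15 that were higher at 9.0 h and in 0 that were lower, against 9.78% and 8.41% of all genes. Those of Adm overlapped. In the fit without 1.5 h replicate 1, with its 9.23% of all genes called, Adm was −0.83 (limma adjusted p = 0.00177), and Ddit4, Ndp and Col18a1 also passed, at 0.51, −0.59 and 0.54 (limma adjusted p = 0.0215, 0.024 and 0.0139). The norrin receptor complex, needed for retinal vessel growth, had 0.10 over 4, with Lrp5 at 0.13 and Fzd4 at 0.10. Vessel growth inhibitors had 0.24 over 6, with Serpinf1 (pigment epithelium-derived factor) at 0.31 and Thbs1 at 0.00. These medians moved with single libraries: that of the inhibitors was 0.04 without 1.5 h replicate 1, that of the norrin complex 0.00 without 1.5 h replicate 2, and that of the other mural genes 0.07 and 0.26 without 9.0 h replicates 1 and 2. The VEGF family median was −0.08 without 1.5 h replicate 1, the angiopoietin median −0.19 without the same library and 0.01 without 1.5 h replicate 2, and the other endothelial median −0.03 and 0.12 without 9.0 h replicates 1 and 2. Barrier genes ran from −0.10 without 9.0 h replicate 1 to −0.01 without 1.5 h replicate 2, smooth muscle was −0.11 without 1.5 h replicate 2, and the hypoxia median was 0.06 without 9.0 h replicate 2.

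**Figure D5:**
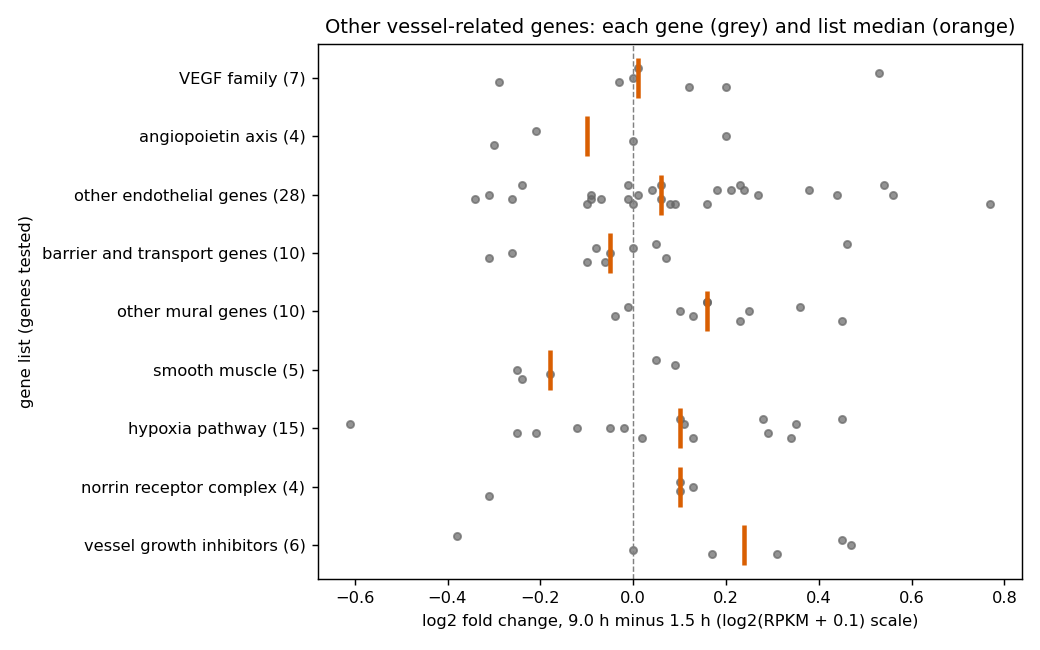
Log2 fold change, 9.0 h minus 1.5 h (horizontal axis, log2(RPKM + 0.1) scale), of each tested gene (grey) in the 9 lists, with the list median (orange) and the number tested in brackets. Medians lie between −0.18 (smooth muscle) and 0.24 (vessel growth inhibitors), and no gene was called; the order of the medians moved with single libraries (inhibitors 0.04 without 1.5 h replicate 1).

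Markers of other cells were summed in each library, over the 6 libraries. The 9 microglia and macrophage genes, which share Pecam1 with endothelium, summed to 121.3 to 161.9 RPKM. The 4 lymphatic genes summed to 44.8 to 75.3 (1.5 h replicate 1 lowest), and 5 fat cell genes to 11.1 to 33.1. Of the lymphatic genes, Pdpn had 23.88 to 52.81 and Prox1 12.5 to 18.36 RPKM, against 3.41 to 5.09 for Lyve1 and 1.14 to 1.32 for Flt4. Whether the Pdpn and Prox1 RNA came from lymphatic vessels was not tested. Mueller glia and astrocyte genes, from cells that secrete VEGF-A, summed to 712.9 to 832.7 over 7, and pigment cell and pigment epithelium genes to 1227 to 1964 over 10, with a median log2 fold change of −0.30 over 9 tested. Of 8 blood genes, Hbb-b1, Hbb-b2, Hba-a1 and Hba-a2 were listed at 0 in every library. Beta-s had 41.87 to 366.91 RPKM in the same libraries, so these zeros cannot be read as absent transcripts. Their source was not tested. Of these lists, skeletal muscle had a called member, Tcap, which did not pass without 1.5 h replicate 3 or without any 1 of the 9.0 h libraries. The part of these cells in the values of the 10 genes was not tested.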

How the data were processed

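Poly(A) RNA of whole eyes was sequenced in 6 libraries, 3 per time. The authors deposited RPKM values, 1 table per library. The unit was taken from the values, since the headers name only the sample. The submitters' processing notes list the aligner GSNAP, the counter HTSeq and build mm9. For versions, annotation, strand setting and gene lengths the entry is: not given in the sources used here. Depth was estimated from the step of low values in genes with 1 transcript length in GENCODE M21. At the chosen step 71.2% to 75.5% of products came within 0.1 of a whole read count, against a median of 9.1% to 15.0% over all steps tried. Read numbers use the longest coding transcript and are approximate.

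The test was limma 3.58.1 in R 4.3.3 (eBayes, trend and robust) on log2(RPKM + 0.1), two-sided, over genes reaching 1 RPKM in at least 3 libraries, with Benjamini-Hochberg adjustment over all 13490. The pseudocount understates changes of low genes. On simulated data for this comparison and these 13490 genes, with independent noise, 76% of 2-fold and 97% of 4-fold changes were recovered, with 6 false calls. The changed genes were drawn from those with a mean of at least 2 RPKM. Changes below 2-fold, the size of those fitted for the 10 genes, were not simulated. Members, lists and tests were chosen with earlier results of these data known. Named were the 10 members, called members of each list (otherwise the 2 with the highest mean) and the 5 genes most like Vegfa and Pecam1; some genes chosen by this rule are not reported here. Older symbols were matched through RefSeq. Alternatives were pseudocounts of 0.01 and 1, no filter, quantile normalization, totals without lens genes, no trend, a replicate block and each library left out.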

Additional observations from a re-analysis of the deposited data

How the results depend on the processing

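None of the 10 genes was called in any of the 13 alternatives. Their median log2 fold change lay between −0.15 and −0.02. Vegfa stayed negative throughout, from −0.48 to −0.30 (limma adjusted p = 0.166 to 0.877). With 1 library left out Cdh5 ran from −0.11 (without 1.5 h replicate 1) to 0.31 (without 1.5 h replicate 3). Over all genes 30 were called, 15 after quantile normalization, 141 with the replicate block, and between 2 and 1245 with 1 library left out. Left out in turn, 1.5 h replicates 1 to 3 gave 1245, 61 and 13 calls and 9.0 h replicates 1 to 3 gave 4, 10 and 2; the cause was not tested. The replicate block left every member uncalled. The labels do not say what same-numbered libraries shared. Deviations from the time means correlated at 0.347, 0.484 and −0.215 across genes for numbers 1 to 3. Unlike-numbered libraries of the 2 times correlated at −0.539 to 0.225. Whether the numbers mark a pairing was not tested. Scaling totals without lens genes moved log2 fold changes upward, Vegfa to −0.33 and Vwf to 0.45. Depth was lowest in 1.5 h replicates 2 and 3, where about 180 reads lay behind the lowest Vwf value.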
